A study of Mus musculus with 899 samples.

Results

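Plasma miRNA was compared between irradiated and sham-treated C3H mice sampled at month 1 after whole thorax irradiation. The samples were those labelled with the strain C3Hf/Sed/Kam and the time point M1, and the irradiated label split them into 58 irradiated and 32 sham samples, 90 of the 899 plasma samples of the series. Per the study's methods these were gnotobiotic young adult mice. Irradiated mice received a single dose of X-rays to the thorax under anesthesia with the rest of the body shielded, a dose set to kill most of them over the following months. Mice without a month 1 sample may have died or had a sample that was rejected, and which of these applied is not given in the sources used here. Each sample was 1 mouse, with 29 females and 29 males among the irradiated and 16 of either sex among the sham mice. The titles place the mice in sets coded G2 (30 irradiated, 16 sham) and G4 (28 irradiated, 16 sham), and the letters A or B mark mice that were also bled at day 2 or at day 5. Of the 64 irradiated C3H mice of the series 58 had a month 1 sample, as did 32 of the 32 sham mice, and all 90 were also sampled before irradiation (time point PT).

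A miRNA is a short RNA that guides a silencing complex to messenger RNA, mostly through its seed, bases 2 to 8 from its 5′ end, so that miRNA with a shared seed can bind many of the same targets. Plasma holds miRNA shed by blood cells, platelets, endothelium and organs such as the liver, bound to proteins or carried in vesicles. Ionizing radiation activates p53, which induces the miR-34 family, and it depletes lymphocytes, which are rich in miR-150. The X-linked cluster of miR-106a, miR-18b, miR-20b and miR-363 is a copy of the miR-17 to miR-92a cluster on chromosome 14, whose members act in cell cycle control and hematopoiesis.

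The mature sequences of the X-linked miRNA are printed with those of their chromosome 14 counterparts, since the comparison of near-identical molecules carries the main finding. They are shown 5′ to 3′ from RefSeq (GRCm38.p6, in which 14 of the 16 called miRNA were matched), with the seed in capitals.
miR-106a-5p: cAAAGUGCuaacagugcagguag
miR-17-5p: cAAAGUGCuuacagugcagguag
miR-20b-5p: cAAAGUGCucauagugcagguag
miR-20a-5p: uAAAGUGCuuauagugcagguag
miR-18b-5p: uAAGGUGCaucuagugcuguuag
miR-18a-5p: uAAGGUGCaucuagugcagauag
The seed AAAGUGC is common to miR-106a-5p, miR-17-5p, miR-20b-5p and miR-20a-5p, and AAGGUGC to miR-18b-5p and miR-18a-5p. Over 23 bases, miR-106a-5p differs from miR-17-5p at 1 position, and miR-20b-5p from miR-20a-5p and miR-18b-5p from miR-18a-5p at 2 positions each. How the authors' alignment assigned reads that match more than 1 of these sequences is not given in the sources used here, so their counts are uncertain to that extent. The hairpins of the X-linked members lie on the minus strand within 455 bases, with Mir106a at chrX:52742503-52742567 in an exon of the noncoding transcript Kis2, and Mir18b at chrX:52742331-52742413 and Mir20b at chrX:52742113-52742192 outside any other annotated gene. Mir17 at chr14:115043671-115043754, Mir18 (miR-18a) at chr14:115043851-115043946 and Mir20a at chr14:115044157-115044263 lie on the plus strand in the noncoding host gene Mir17hg.

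The profiles of 4 of the 90 samples stood apart from the others, with a correlation to the median profile under 0.93. They were those of the irradiated mice 2010 and 2095 and the sham mice 2001 and 2049, and mouse 2095 had 71.8% of its reads in miR-16-5p and 272 miRNA detected. All 4 were kept.

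At month 1, 16 of 483 miRNA tested (3.31%) differed between irradiated and sham C3H mice in the quasi-likelihood test of edgeR after Benjamini-Hochberg adjustment, 8 of them higher in irradiated mice (1.66%) and 8 lower (1.66%), and 60 had an unadjusted p under 0.05. The smallest p-values were those of 3 miRNA of the X-linked cluster, miR-18b-5p, miR-106a-5p and miR-20b-5p. Their levels were 2.74-fold, 2.18-fold and 1.85-fold higher in irradiated than in sham mice. The lymphocyte miRNA miR-150-5p was 1.54-fold lower and the hepatocyte miRNA miR-122-5p 2.51-fold higher in irradiated than in sham mice. Also called higher were miR-24-3p, miR-34c-3p, miR-27b-3p and miR-6961-3p, and called lower were miR-103-3p, miR-1839-5p, let-7g-5p, miR-135a-5p, miR-1249-3p, miR-340-5p and miR-365-3p. Over all 483 miRNA the median log2 fold change was -0.05. Because plasma is a mixture, a lower level may reflect fewer cells of a type or less RNA released per cell, and these cannot be told apart.

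Without the 4 samples that stood apart, a setting chosen after seeing the data, 7 miRNA were called, all among the 16: miR-18b-5p, miR-106a-5p, miR-20b-5p, miR-150-5p, miR-122-5p, miR-24-3p and miR-34c-3p. For the other 9 the adjusted p by edgeR was then between 0.0729 and 0.142. Leaving out sham mouse 2001 alone gave 8 calls, the same 7 and miR-27b-3p, so that miR-150-5p was then the 1 miRNA called lower.

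Abundance is given as log2 CPM, the log2 of reads scaled to TMM-normalized library size with a prior count of 2, on which a sample with no read stands at 0.23. For miR-18b-5p the irradiated samples lay between 4.49 and 7.42 with a median of 5.77, and the sham samples between 3.01 and 5.50 with a median of 4.50. Of the 58 irradiated samples 39 were above the highest sham sample, and 0 of 32 sham samples reached the irradiated median, so the groups overlapped in their outer parts only. The log2 fold change of miR-18b-5p was 1.46 (standard error, SE, 0.17, edgeR adjusted p = 1.23e-13).

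For miR-106a-5p the values ran from 4.41 to 6.70 (median 5.74) in irradiated and from 3.22 to 5.90 (median 4.37) in sham mice. All 58 irradiated samples were above the sham median and 19 were above the highest sham sample, and 2 of 32 sham samples were above the irradiated median. Its log2 fold change was 1.12 (SE 0.15, adjusted p = 3.66e-11) by edgeR. For miR-20b-5p irradiated samples ran from 4.36 to 7.17 (median 6.29) and sham samples from 2.93 to 6.53 (median 5.47), with 19 irradiated samples above the highest sham sample and 2 sham samples above the irradiated median. Its log2 fold change was 0.89 (SE 0.15, adjusted p = 5.47e-07) by edgeR. The plot of the abundance in every mouse shows these separations beside those of the other leading miRNA.

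**Figure D1:**
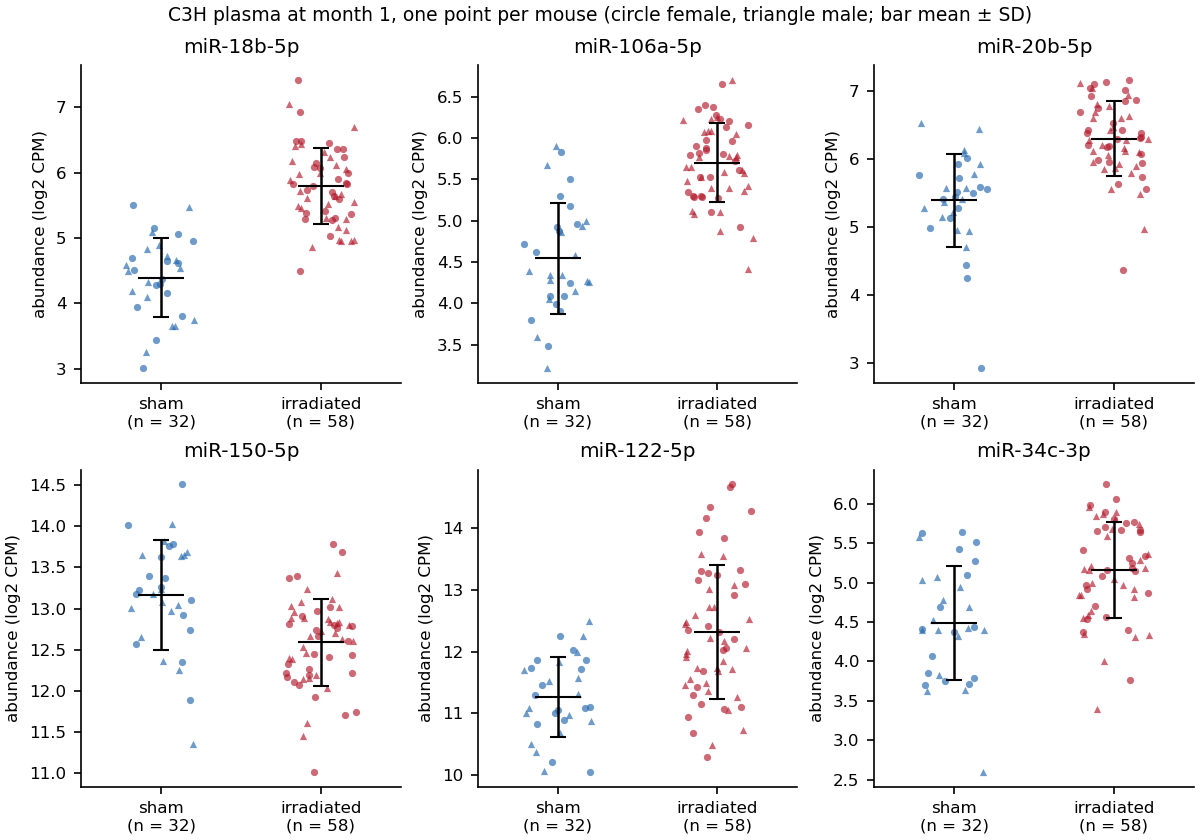
Abundance (log2 CPM) of 6 miRNA in each of the 32 sham and 58 irradiated C3H mice at month 1, with circles for females, triangles for males and bars for the mean ± SD. The X-linked miR-18b-5p, miR-106a-5p and miR-20b-5p and the miRNA miR-122-5p and miR-34c-3p lie higher in irradiated mice and miR-150-5p lower, and for miR-18b-5p 39 of 58 irradiated mice are above every sham mouse.

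Of the 10 mature miRNA listed for the X-linked cluster, 5 passed the filter on low counts. Beside the 3 called higher, miR-363-3p had a log2 fold change of 1.00 (SE 0.40, adjusted p = 0.187) and miR-363-5p of 1.00 (SE 0.49, adjusted p = 0.364) by edgeR, and neither passed the threshold. Both were near the detection limit: miR-363-3p ran from 0.23 to 5.08 (median 2.65) in irradiated and from 0.23 to 3.88 (median 1.80) in sham mice, with no read in 6 irradiated and 4 sham samples. Among the X-linked members tested the median log2 fold change was 1.00, against -0.05 over all miRNA tested.

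The chromosome 14 counterparts, which are more abundant in plasma, gave 0 calls. Of 12 mature miRNA listed for the miR-17 to miR-92a cluster 10 were tested, with a median log2 fold change of -0.12 and 3 positive values. Among them miR-19b-3p (-0.16) and miR-92a-3p (0.07) were counted for chromosome 14 only. The X-linked list names another copy of each gene, through miR-19b-2-5p and miR-92a-2-5p, so reads of these 3p miRNA may come from either cluster. By edgeR, miR-18a-5p had 0.18 (SE 0.13, adjusted p = 0.624), miR-17-5p 0.08 (SE 0.15, adjusted p = 0.901) and miR-20a-5p -0.15 (SE 0.09, adjusted p = 0.557). The third copy of the family, the miR-106b, miR-93 and miR-25 cluster, also gave 0 calls among 6 tested, with a median of -0.08, and its most abundant members miR-25-3p and miR-93-5p had -0.11 and -0.04.

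The ratio of an X-linked miRNA to its counterpart was also taken within each library, where both share the same depth and normalization. The log2 ratio of reads (each with 1 added) of miR-18b-5p to miR-18a-5p was between -2.51 and -0.32 (median -1.72) in irradiated and between -4.26 and -1.98 (median -2.87) in sham mice. For miR-106a-5p to miR-17-5p it was between -4.27 and -2.62 (median -3.50) and between -5.84 and -3.51 (median -4.59). In both cases 58 of 58 irradiated mice were above the sham median and 0 of 32 sham mice above the irradiated median. For miR-20b-5p to miR-20a-5p the medians were -5.14 and -6.22, with 57 irradiated mice above the sham median and 1 sham mouse above the irradiated median. The means differed by 1.24, 1.09 and 1.06 on the log2 scale for the 3 pairs. Before irradiation, the differences of the same ratios between mice assigned to irradiation (n = 64) and to sham treatment (n = 32) were 0.23, 0.10 and 0.14, and 31, 34 and 32 of the 64 mice were above the sham median. These ratios are a description and were not tested.

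**Figure D2:**
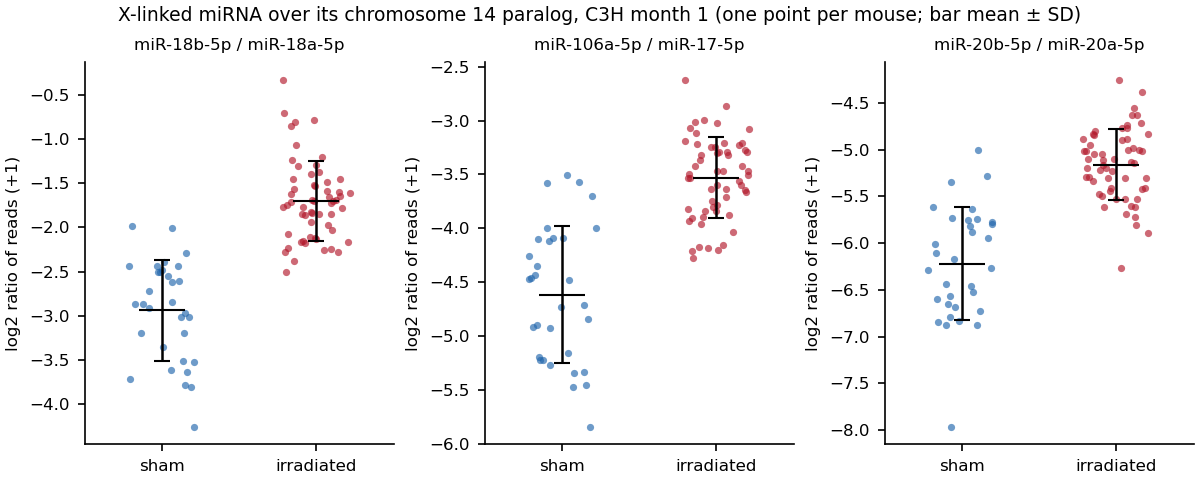
Log2 ratio of the reads (with 1 added) of each X-linked miRNA to its chromosome 14 counterpart at month 1, 1 point per mouse (32 sham, 58 irradiated), with bars for the mean ± SD. For miR-18b-5p to miR-18a-5p the irradiated median was -1.72 and the sham median -2.87, and no sham mouse reached the irradiated median.

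Whether the cluster members varied together between mice was examined within each treatment group, over 6 correlations. In irradiated mice (n = 58) miR-106a-5p and miR-18b-5p had a Pearson r of 0.53 and a Spearman rho of 0.48 (adjusted permutation p = 0.00054 for rho). The adjusted permutation p of this r was recorded as 6e-05. Very small raw p-values were all set to 1e-05, so its true value may be larger. Without the 2 mice farthest from the median r was 0.49. For miR-106a-5p and miR-20b-5p r was 0.30 (adjusted permutation p = 0.0265) and rho 0.41 (adjusted permutation p = 0.0028), and r was again 0.30 without the 2 farthest mice. For miR-18b-5p and miR-20b-5p r was 0.16 (adjusted permutation p = 0.235) and rho 0.32 (adjusted permutation p = 0.0162), and r was 0.24 without the 2 farthest mice. In sham mice (n = 32) the 3 pairs had r of 0.47, 0.47 and 0.50 (adjusted permutation p = 0.0099 for each) and rho of 0.39, 0.64 and 0.47 (adjusted permutation p = 0.028, 0.00054 and 0.0112), and r was 0.44, 0.40 and 0.48 without the 2 farthest mice. The values of a pair come from the same library and share its depth and normalization. Without the 4 samples that stood apart, r was 0.33 for miR-18b-5p and miR-20b-5p in irradiated mice (adjusted permutation p = 0.0289) and 0.34 for miR-106a-5p and miR-18b-5p in sham mice (adjusted permutation p = 0.065), each then on the other side of the threshold.

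The miRNA miR-150-5p is made in mature lymphocytes, where it represses the transcription factor Myb. It was among the abundant plasma miRNA, rank 21 of those tested. Irradiated samples lay between 11.01 and 13.78 log2 CPM (median 12.67) and sham samples between 11.35 and 14.52 (median 13.21). The groups overlapped widely, with 52 of 58 irradiated samples below the sham median. The log2 fold change was -0.62 (SE 0.11, adjusted p = 8.16e-07) by edgeR. Of 8 mature miRNA listed for lymphocytes 5 were tested and miR-150-5p was the 1 called, in a list whose median was -0.06. By edgeR, miR-155-5p had -0.23 (adjusted p = 0.523), miR-342-3p 0.04 (adjusted p = 0.936), miR-181a-5p -0.02 (adjusted p = 0.987) and miR-181b-5p -0.06 (adjusted p = 0.980). The summed level of the lymphocyte list ran from 11.61 to 14.01 (median 13.10) in irradiated and from 12.18 to 14.67 (median 13.51) in sham mice. It was summed on the linear scale, so it mostly repeats miR-150-5p. The next most abundant member, miR-342-3p, had a mean of 10.79 log2 CPM in irradiated and 10.78 in sham mice. Of 6 miRNA listed for myeloid cells and leukocytes in general, 0 were called, with a median of -0.07, and their most abundant members miR-146a-5p, miR-142a-5p and miR-223-3p had -0.08, -0.18 and 0.27.

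The miRNA miR-122-5p is specific to hepatocytes and is used as a plasma marker of liver cell damage. In irradiated mice it had the widest spread among the leading miRNA, from 10.30 to 14.71 log2 CPM (median 12.19). Sham samples ran from 10.05 to 12.49 (median 11.21). Of the irradiated samples 22 lay above the highest sham sample and 9 below the sham median. Its log2 fold change was 1.33 (SE 0.24, adjusted p = 6.55e-06) by edgeR.

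The passenger strand, miR-122-3p, had a log2 fold change of 1.34 (SE 0.53, edgeR adjusted p = 0.174). Its levels were near the detection limit, with no read in 21 irradiated and 17 sham samples. Of 7 liver miRNA tested out of 8 listed, 6 had positive values with a median of 0.39, and 1 was called. The most abundant others were miR-192-5p, which is shared with gut and kidney, with 0.39 (SE 0.13, adjusted p = 0.0621), and miR-215-5p with 0.10 (adjusted p = 0.857) by edgeR. The SD of miR-122-5p was 1.08 in irradiated and 0.65 in sham mice.

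The miRNA miR-34c-3p comes from the Mir34b and Mir34c transcript, a direct target of p53. Mir34c lies at chr9:51103034-51103110 on the minus strand, opposite an intron of Btg4, and the mature sequence is given for reference.
miR-34c-3p: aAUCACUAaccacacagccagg
Irradiated samples lay between 3.40 and 6.25 log2 CPM (median 5.18) and sham samples between 2.59 and 5.65 (median 4.41), with 18 irradiated samples above the highest sham sample and 6 sham samples above the irradiated median. The log2 fold change was 0.64 (SE 0.18, adjusted p = 0.0177) by edgeR. Of the 6 miR-34 and miR-449 family members tested out of 8 listed, 5 had positive values, the median was 0.25 and miR-34c-3p was the 1 called. By edgeR, miR-34b-3p had 0.45 (adjusted p = 0.221), miR-34a-5p 0.28 (adjusted p = 0.408) and miR-34c-5p, from the other arm of the same hairpin, 0.09 (adjusted p = 0.918).

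Smaller differences were measured for a pair of abundant miRNA, miR-24-3p and miR-27b-3p. Their genes Mir24-1 (chr13:63301208-63301275) and Mir27b (chr13:63300712-63300784) are neighbors on the plus strand, in an exon of 2010111I01Rik and opposite an intron of Fancc. Both miRNA were called higher in irradiated than in sham mice, and their sequences are shown because they do not share a seed.
miR-24-3p: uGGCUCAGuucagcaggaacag
miR-27b-3p: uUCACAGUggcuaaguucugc
The mature miR-24-3p is also encoded by Mir24-2 (chr8:84208815-84208921), and its reads cannot be assigned to either gene. It ran from 11.58 to 13.64 (median 12.34) in irradiated and from 11.39 to 12.86 (median 12.16) in sham mice, and its log2 fold change was 0.31 (SE 0.08, adjusted p = 0.00338) by edgeR. For miR-27b-3p the range was 12.21 to 14.90 (median 13.02) against 12.15 to 13.52 (median 12.81), with a log2 fold change of 0.28 (SE 0.08, adjusted p = 0.0177), which was 0.24 (adjusted p = 0.0803) without the 4 samples that stood apart. In both the groups overlapped over most of their range, with 40 and 41 of 58 irradiated samples above the sham median. Since PT, miR-24-3p had changed by -0.18 ± 0.63 (SD) in irradiated and -0.48 ± 0.48 in sham mice. For miR-27b-3p the change was 0.06 ± 0.63 and -0.01 ± 0.35. The third mature miRNA of that cluster, miR-23b-3p, looked up after these values were seen, had -0.11 (adjusted p = 0.778) by edgeR.

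Of the 7 other miRNA called lower, miR-103-3p, miR-1839-5p, let-7g-5p, miR-340-5p and miR-365-3p were read in all 90 samples. For miR-103-3p, encoded in introns of Pank2 and Pank3 and known for its part in insulin sensitivity, irradiated samples ran from 7.88 to 11.02 (median 9.57) and sham samples from 8.79 to 11.44 (median 10.06), with a log2 fold change of -0.48 (SE 0.13, adjusted p = 0.0177) by edgeR. Its near-identical relative miR-107-3p, looked up after these values were seen, had -0.97 (SE 0.37, adjusted p = 0.14) at much lower counts. For let-7g-5p the values were 11.37 to 13.57 (median 12.16) against 11.89 to 13.71 (median 12.40), with -0.35 (SE 0.10, adjusted p = 0.0248), and 14 irradiated samples were below the lowest sham sample. Of the 9 let-7 family members tested it was the 1 called, and 5 were positive with a family median of 0.03, and the more abundant let-7c-5p and let-7i-5p had -0.17 and 0.20. Without the 4 samples that stood apart, miR-103-3p had -0.43 and let-7g-5p -0.33 (adjusted p = 0.0729 for either by edgeR). In the change of each mouse since PT, irradiated minus sham was -0.18 and -0.14, and neither was called.

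By edgeR, the log2 fold change was -0.44 (SE 0.12, adjusted p = 0.0177) for miR-1839-5p, whose hairpin overlaps an annotated small Cajal body RNA, -0.31 (SE 0.10, adjusted p = 0.0403) for miR-340-5p, which lies in an intron of Rnf130, and -0.61 (SE 0.19, adjusted p = 0.0478) for miR-365-3p. The irradiated and sham medians were 6.57 and 6.89, 8.34 and 8.68, and 6.52 and 7.09. Without the 4 samples that stood apart the values were -0.39, -0.27 and -0.58, none of them called. In each of the 3 the ranges overlapped, and 44, 41 and 44 of the 58 irradiated samples were below the sham median.

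The other 3 called miRNA were not read in every sample. For miR-6961-3p, in an intron of Bin2, a read was found in 22 of 58 irradiated and 4 of 32 sham samples, with 63 reads in all irradiated and 9 in all sham samples, a rate of 0.670 and 0.133 RPM. A sample held at most 7 of these reads, so the fitted log2 fold change of 1.82 (SE 0.55, adjusted p = 0.0323 by edgeR) is not precise. For miR-1249-3p 48 irradiated and 30 sham samples had a read, the medians were 1.69 and 2.22 log2 CPM, and the log2 fold change was -0.95 (SE 0.29, adjusted p = 0.0323). For miR-135a-5p, best known from the brain, samples ran from 0.23 to 8.40 (median 3.82) in irradiated and from 0.23 to 9.18 (median 4.21) in sham mice. Its log2 fold change of -1.12 (SE 0.33, edgeR adjusted p = 0.0291) was -0.70 (adjusted p = 0.494) without sham mouse 2001, and the adjusted p lay between 0.0184 and 1 over 17 alternatives. Without the 4 samples that stood apart none of these 3 was called, with 1.79 (adjusted p = 0.0729) for miR-6961-3p, -0.81 (adjusted p = 0.142) for miR-1249-3p and -1.01 (adjusted p = 0.0803) for miR-135a-5p by edgeR.

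**Figure D3:**
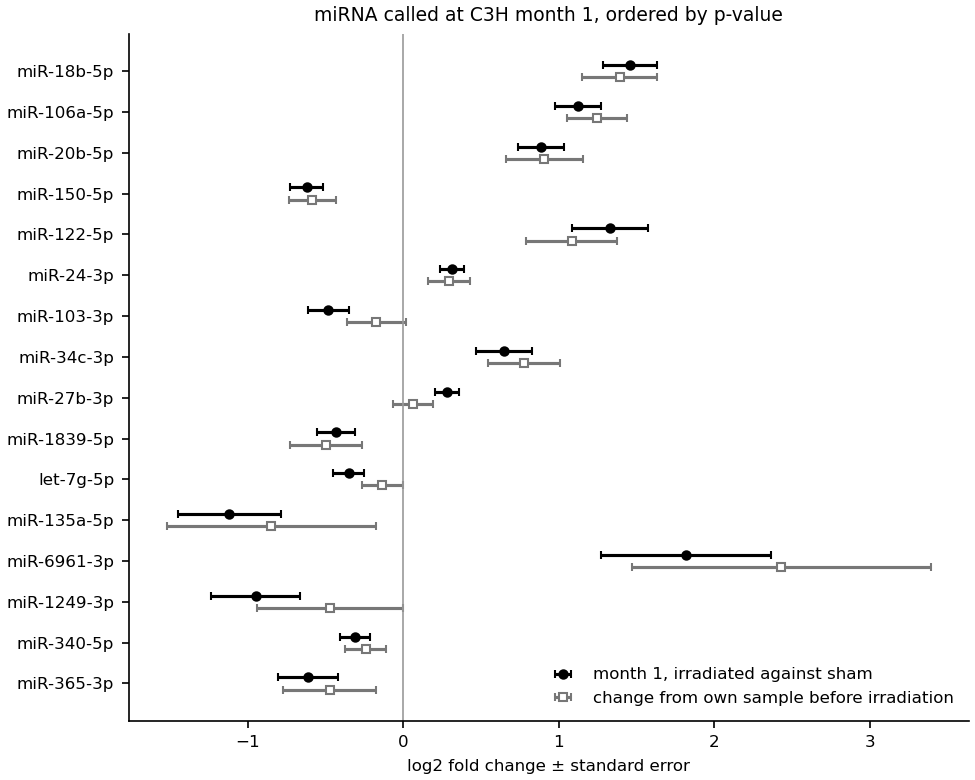
Log2 fold change ± standard error of the 16 called miRNA at month 1, irradiated against sham (filled circles), beside the difference between irradiated and sham mice in the change of each mouse since PT (open squares). Both estimates lie close together for the 5 miRNA at the top, and the second is 1.39 for miR-18b-5p, -0.59 for miR-150-5p and 0.06 for miR-27b-3p.

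The other lists of miRNA by source gave 0 calls apart from miR-135a-5p, the 1 call among 10 neural miRNA tested (median -0.05). The red blood cell list (8 tested) had a median of 0.01, and miR-16-5p, the most abundant miRNA in all 90 samples, had 0.22 (adjusted p = 0.408 by edgeR), miR-486a-5p and miR-486b-5p 0.01 each and miR-451a -0.09. The summed level of the red blood cell list ran from 18.02 to 20.87 (median 18.92) in irradiated and from 17.96 to 19.75 (median 18.80) in sham mice. All 10 epithelial miRNA had negative values, from -0.71 to -0.12 with a median of -0.27, and 0 passed the threshold; the lowest adjusted p was that of miR-200c-3p (-0.71, adjusted p = 0.0621 by edgeR), and the most abundant, miR-205-5p and miR-200a-3p, had -0.12 and -0.13.

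Of 11 stromal and fibrosis miRNA 10 had negative values, with a median of -0.13, and miR-21a-5p, the most abundant, had -0.06. The endothelial miR-126a-3p and miR-126a-5p had 0.31 (adjusted p = 0.0621) and 0.14 (adjusted p = 0.585) by edgeR. For muscle (7 tested) the median was -0.23, with 0.17 for miR-206-3p, -0.55 for miR-1a-3p and -0.06 for miR-133a-3p, and the SD of these 3 within a group was 1.79 to 2.55. For pancreas and endocrine cells (5 tested) the median was -0.11, and miR-375-3p had 0.11.

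**Figure D4:**
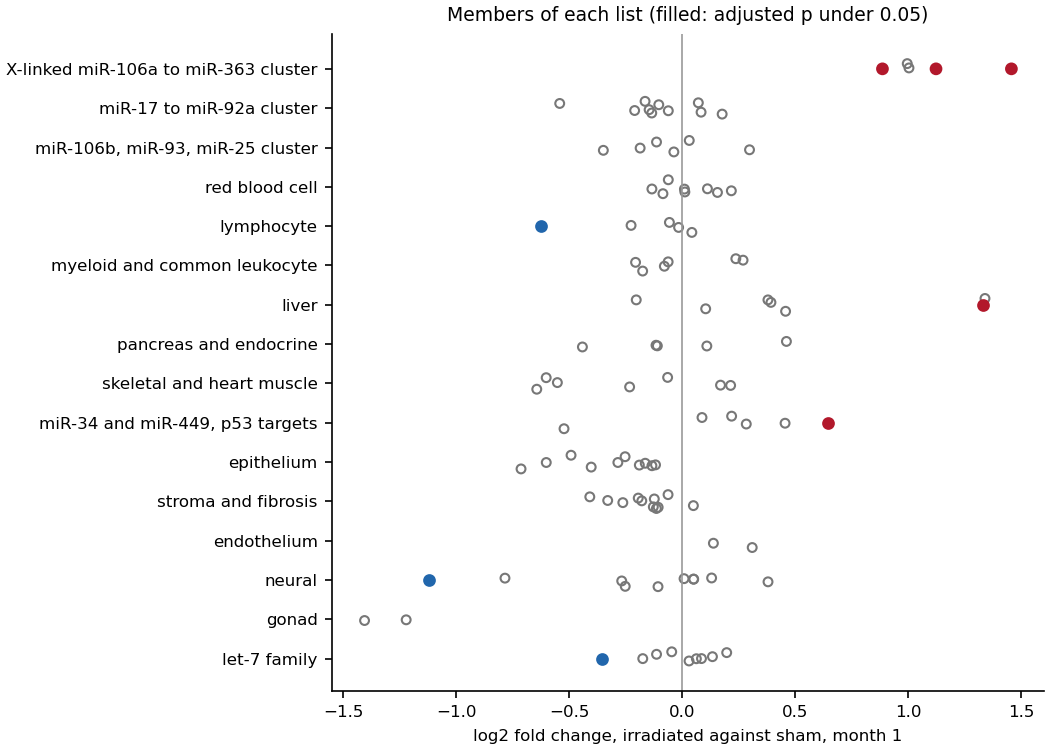
Log2 fold change at month 1 of each miRNA tested in 16 lists, with filled points for an adjusted p under 0.05 (red higher, blue lower) and open points for the others. The X-linked cluster stands at 0.89 to 1.46, while the miR-17 to miR-92a cluster lies between -0.54 and 0.18.

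The gonadal miRNA miR-202-5p and miR-202-3p had -1.40 (SE 0.47) and -1.22 (SE 0.47) with edgeR adjusted p = 0.0621 and 0.152 over the sexes combined. Among females miR-202-5p ran from 0.23 to 5.68 (median 2.46) in 29 irradiated and from 2.45 to 6.27 (median 4.17) in 16 sham mice, and in the model with sex in its groups its log2 fold change was -1.505 (SE 0.39, adjusted p = 0.0112). For miR-202-3p in females it was -1.74 (SE 0.51, adjusted p = 0.0406) by the same test. In males no read of miR-202-5p was found in 17 of 29 irradiated and 6 of 16 sham mice, and the value was 0.33 (adjusted p = 0.909). The difference between the sexes was not past the threshold, at -1.84 (SE 0.67, adjusted p = 0.800) for miR-202-5p and -2.97 (SE 0.81, adjusted p = 0.133) for miR-202-3p by edgeR.

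With sex in the groups of the model, 8 miRNA were called in females (1.66%) and 6 in males (1.24%), of which 6 and 6 were among the 16. The test of the difference between the sexes called 0 miRNA (0%) by edgeR, 18 had an unadjusted p under 0.05, and limma-voom and edgeR with DESeq2 size factors also called 0. For miR-18b-5p the log2 fold change was 1.52 (SE 0.24) in females and 1.39 (SE 0.24) in males, for miR-106a-5p 1.15 and 1.09, and for miR-150-5p -0.71 and -0.53. For miR-20b-5p it was 1.12 in females and 0.67 in males (adjusted p = 0.0566), and for miR-122-5p 1.71 and 0.81 (adjusted p = 0.23). The differences for these last were 0.45 (SE 0.28) and 0.90 (SE 0.44), adjusted p = 0.993 for either by edgeR.

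The sets coded G2 and G4 gave 3 (0.621%) and 8 (1.66%) calls, and the test of the difference called 0 (0%), with 16 at an unadjusted p under 0.05 by edgeR and 0 also by limma-voom and with DESeq2 size factors. The log2 fold change of miR-18b-5p was 1.44 in G2 and 1.49 in G4, that of miR-106a-5p 0.98 and 1.26, and that of miR-20b-5p 0.96 and 0.80. For miR-150-5p it was -0.49 (adjusted p = 0.0687) and -0.72 (adjusted p = 0.000139), and for miR-122-5p 0.66 (adjusted p = 0.505) and 1.76 (adjusted p = 6.31e-05) by edgeR. The G2 minus G4 difference for miR-122-5p was -1.10 (SE 0.45, adjusted p = 0.731). In levels, irradiated mice had 11.77 ± 0.75 (SD, n = 30) in G2 and 12.91 ± 1.08 (SD, n = 28) in G4 for miR-122-5p, while sham mice had 11.12 ± 0.73 (SD, n = 16) and 11.42 ± 0.53 (SD, n = 16).

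Before irradiation, mice later irradiated and mice later sham-treated (64 and 32) gave 0 calls (0%) by edgeR, with 32 at an unadjusted p under 0.05 and 0 by limma-voom and with DESeq2 size factors. The log2 fold change at that time was 0.10 for miR-18b-5p, -0.03 for miR-106a-5p, -0.05 for miR-20b-5p, 0.04 for miR-150-5p and -0.65 for miR-122-5p (adjusted p = 0.695). In a fit of the change of each mouse since PT, in which every mouse was a fixed block, that change differed between irradiated and sham mice for 5 of 483 miRNA (1.04%), and all 5 were among the 16. They were miR-18b-5p with 1.39 (SE 0.24, adjusted p = 2.4e-05), miR-106a-5p with 1.25 (SE 0.19, adjusted p = 1.54e-06), miR-20b-5p with 0.91 (SE 0.25, adjusted p = 0.0391), miR-150-5p with -0.59 (SE 0.15, adjusted p = 0.0331) and miR-122-5p with 1.08 (SE 0.29, adjusted p = 0.0385) by edgeR. For the other 11 the adjusted p was between 0.09 and 1, the lowest being that of miR-34c-3p (0.77, SE 0.23). Of the 16, 8 had the same sign before irradiation as at month 1. Mean log2 CPM at PT was 9.81 in later irradiated and 10.10 in later sham mice for miR-103-3p, and 12.39 and 12.58 for let-7g-5p. For miR-27b-3p it was 13.00 and 12.87. The estimates of the change for these miRNA were -0.18 (SE 0.19), -0.14 (SE 0.13) and 0.06 (SE 0.13), against -0.50 (SE 0.23) for miR-1839-5p.

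The change of each mouse from PT to month 1 is given as a description. In log2 CPM, miR-18b-5p moved over that time by 0.77 ± 1.02 (SD, n = 58) in the irradiated group and -0.57 ± 1.03 (SD, n = 32) in the sham group, and it went up in 43 of 58 and 11 of 32. For miR-106a-5p the change was 0.67 ± 0.79 and -0.55 ± 0.80, up in 49 of 58 and 7 of 32. For miR-20b-5p it was 1.13 ± 1.02 and 0.23 ± 1.25, up in 52 of 58 and 16 of 32. For miR-18b-5p and miR-106a-5p the mean was thus above 0 in irradiated and below 0 in sham mice.

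For miR-150-5p both means were negative, with -0.93 ± 0.65 in irradiated mice (down in 55 of 58) and -0.34 ± 0.69 in sham mice (down in 25 of 32). For miR-122-5p irradiated mice changed by 0.28 ± 1.33 (up in 36 of 58) and sham mice by -0.85 ± 1.38 (down in 24 of 32), the larger of both changes being that of the sham mice. For miR-34c-3p both means were positive, with 1.58 ± 1.01 (up in 57 of 58) and 0.81 ± 0.81 (up in 27 of 32).

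The neighboring time points were compared through tests of the difference in effect. Of the 16 miRNA, 5 were called at day 2 (where 4.97% of all miRNA were), 4 at day 5 (3.11%) and 1 at month 2 (0.621%). The month 1 effect differed from that at day 5 for 6 of 483 miRNA (1.24%) by edgeR. The X-linked miRNA had no effect past the threshold at day 5, with 0.00 for miR-18b-5p, 0.08 for miR-106a-5p and -0.11 for miR-20b-5p, and the differences were 1.45 (SE 0.28, adjusted p = 7e-05), 1.04 (SE 0.25, adjusted p = 0.00303) and 0.99 (SE 0.24, adjusted p = 0.0052). At day 2 they were -0.35, -0.51 and -0.50, and none of the 3 passed the threshold.

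In miR-122-5p the sign turned, from -1.06 (SE 0.31, adjusted p = 0.0213) at day 2 and -0.38 (adjusted p = 0.737) at day 5 to 1.33 at month 1 by edgeR, a difference from day 5 of 1.71 (SE 0.39, adjusted p = 0.00224). The effect on miR-150-5p became smaller, from -1.70 at day 2 and -1.29 at day 5 to -0.62, a difference from day 5 of 0.67 (SE 0.18, adjusted p = 0.0225). The effect on miR-34a-5p, induced by p53, went from 1.80 at day 5 to 0.28 at month 1, a difference of -1.52 (SE 0.25, adjusted p = 1.64e-06). For miR-34c-3p the values were 1.92, 1.51 and 0.64 at day 2, day 5 and month 1, and the difference between month 1 and day 5 was -0.86 (SE 0.30, adjusted p = 0.218).

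**Figure D5:**
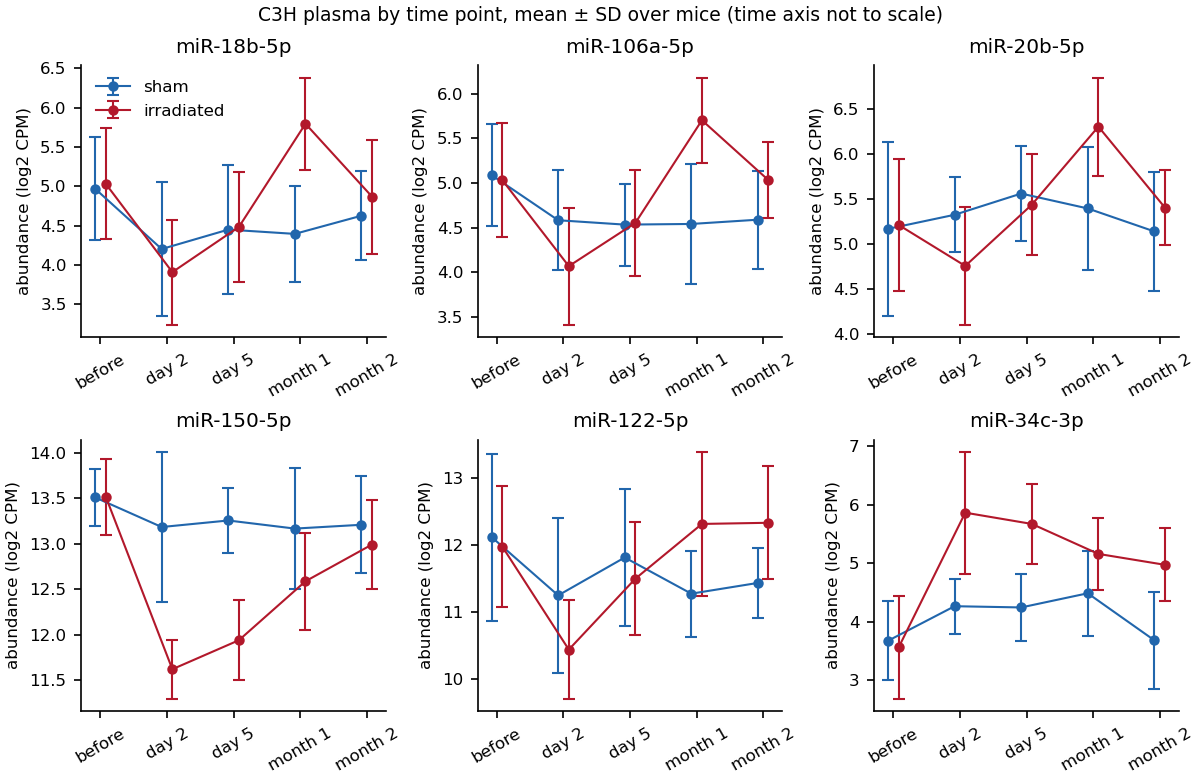
Mean ± SD abundance (log2 CPM) of 6 miRNA in sham and irradiated C3H mice before irradiation, at days 2 and 5 and at months 1 and 2 (time axis not to scale). The X-linked miRNA separate at month 1, where miR-18b-5p was 5.80 in irradiated and 4.40 in sham mice, while miR-150-5p and miR-34c-3p already separate at day 2.

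At month 2, from when on C3H samples came from set G2 alone (28 irradiated, 16 sham), miR-18b-5p had 0.33 (SE 0.24, adjusted p = 0.728), and it was the 1 miRNA (0.207%) whose effect differed between months 2 and 1, by -1.13 (SE 0.28, adjusted p = 0.0407) by edgeR. Within set G2 that difference was -1.11 (SE 0.33, adjusted p = 0.347), an added comparison chosen after seeing the data in which 0 miRNA were called and 15 had an unadjusted p under 0.05. For miR-106a-5p and miR-20b-5p the month 2 effects were 0.43 and 0.19, and the differences from month 1 were -0.70 for each (adjusted p = 0.362). The effects on miR-122-5p and miR-150-5p were 1.04 (adjusted p = 0.149) and -0.22 (adjusted p = 0.72) at month 2, and that on miR-34c-3p was 1.24 (SE 0.26, adjusted p = 0.000759) by edgeR. Within set G2 the month 2 minus month 1 difference was 0.38 (SE 0.45) for miR-122-5p, 0.27 (SE 0.21) for miR-150-5p and 0.67 (SE 0.34) for miR-34c-3p.

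Irradiated and sham C57Bl/6 mice at month 1 (68 and 32 samples) were used to see where the C3H effects differ by strain. There 18 miRNA (3.73%) were called, 2 of them among the 16, namely miR-18b-5p with 0.97 (SE 0.17, adjusted p = 1.01e-06) and miR-106a-5p with 0.52 (SE 0.14, adjusted p = 0.00928) by edgeR. The test of the strain difference called 6 miRNA (1.24%), and 5 without the 4 samples that stood apart. The C3H effect was larger than the C57Bl/6 effect by 1.88 (SE 0.32, adjusted p = 1.63e-06) for miR-122-5p, which had -0.55 (adjusted p = 0.141) in C57Bl/6 mice. For miR-150-5p the difference was -0.57 (SE 0.15, adjusted p = 0.0166), with -0.05 in C57Bl/6 mice. For miR-216a-5p and miR-7a-5p the differences were -2.18 (SE 0.35, adjusted p = 2.7e-07) and -1.44 (SE 0.24, adjusted p = 5.8e-07), and their C3H values were -0.11 and -0.12. The X-linked miRNA did not differ past the threshold, with 0.49 for miR-18b-5p (adjusted p = 0.583), 0.60 for miR-106a-5p (adjusted p = 0.144) and 0.48 for miR-20b-5p (adjusted p = 0.402).

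Library measures stand beside these results. Irradiated samples held 419249 to 3605785 reads and sham samples 700206 to 6992333, with means of 1620610 and 2117893 (adjusted permutation p = 0.114, adjusted over 4 measures). The share of reads of miR-16-5p was 44.7% ± 8.82 (SD, n = 58) and 41.5% ± 7.25 (SD, n = 32), adjusted permutation p = 0.114. The log2 ratio of miR-451a to miR-23a-3p, used as a sign of red cell lysis, was 0.47 ± 1.13 and 0.59 ± 1.24 (adjusted permutation p = 0.651). In irradiated mice it ran from 0.000507 to 2.56 in set G2 and from -2.47 to 0.88 in set G4. In sham mice it ran from -0.00133 to 2.34 in set G2 and from -1.83 to 1.32 in set G4. The permutation test did not account for set. The part of these measures in the results was not tested beyond a fit with the miR-451a to miR-23a-3p ratio as a covariate. That fit used the C3H month 1 samples alone and called 10 miRNA, 9 of them among the 16. The same samples fitted without the covariate gave fewer calls, as listed in the last section.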

How the data were processed

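Plasma miRNA libraries of 899 samples were analysed, 1 sample per mouse and time point. The authors deposited raw counts of reads per mature miRNA. Per their methods, small RNA libraries (QIAseq miRNA kit) from plasma were sequenced on a NextSeq, trimmed and aligned with the Illumina BaseSpace Small RNA application to mouse mm10, and hemolyzed plasma and runs with few miRNA reads were rejected. Use of molecular identifiers, the miRBase release and the handling of reads matching several miRNA are not given in the sources used here. Groups were taken from the labels (strain, time point, irradiated, sex) and the titles (mouse, set, subset). No column held another sample (0).

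Of 1915 miRNA, 483 passed filterByExpr (99.99% of reads). Counts were TMM-normalized and fitted with edgeR 4.0.16 (glmQLFit, glmQLFTest) over all samples with 32 groups and 867 residual degrees of freedom, and p-values were Benjamini-Hochberg adjusted over all 483 miRNA, with a threshold of 0.05. Differences in effect between time points, sexes, sets and strains were contrasts of the same kind of fit. Levels are log2 CPM with a prior count of 2. Library measures and correlations used permutation tests (two-sided, 100000 resamples, scipy 1.17.1, Python 3.11). R 4.3.3, limma 3.58.1 and DESeq2 1.42.0 served for alternatives, and DESeq2 left 0 adjusted p-values undefined. The authors' own normalization (quantile normalization of log2 RPM) was run as an alternative with a pseudocount of 1 and limma, without their voom step. Scripts were tested on simulated data.

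All called miRNA were named, and of each list the called members or up to 3 of the most abundant; for each test of a difference, up to 3 called miRNA with the smallest p and any of the 16. The members and lists were chosen with earlier results of these data known. Mouse numbers in the titles pair the PT and month 1 samples of a mouse. The mean correlation of their deviations was 0.0208 over 90 pairs (164 miRNA), against 0.000558 for other mice, and the consensus correlation by mouse was 0.0434. Sequences and gene positions are from RefSeq, GRCm38.p6.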

Additional observations from a re-analysis of the deposited data

Results flagged for a closer look

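In C3H mice the irradiated against sham effect differed between month 1 and day 5 by a test of the difference itself for 6 miRNA, and each is listed with the month 1 minus day 5 difference in log2 fold change (edgeR, Benjamini-Hochberg). The difference was -1.52 (SE 0.25, adjusted p = 1.64e-06) for miR-34a-5p. It was 1.45 for miR-18b-5p, 1.04 for miR-106a-5p and 0.99 for miR-20b-5p. For miR-122-5p it was 1.71 and for miR-150-5p 0.67. Within set G2 the first, miR-18b-5p, miR-20b-5p and miR-150-5p remained past the threshold, and within set G4 miR-34a-5p and miR-18b-5p did.

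The month 2 effect on miR-18b-5p was lower than the month 1 effect by a difference of -1.13 (SE 0.28, edgeR adjusted p = 0.0407). Month 2 samples came from set G2 alone, and within that set the adjusted p was 0.347.

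At month 1 the effect differed between the strains for miR-216a-5p (-2.18), miR-7a-5p (-1.44), miR-122-5p (1.88) and miR-150-5p (-0.57), each given as C3H minus C57Bl/6. The pancreas-enriched miR-216a-5p and miR-7a-5p had log2 fold changes of 2.07 and 1.32 in C57Bl/6 mice (edgeR adjusted p = 1.38e-11 and 3.65e-11).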

How the results depend on the processing

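The 16 calls became 9 with quantile-normalized log2 RPM and limma, 47 with no filter on low counts, 8 with the C3H month 1 samples alone and 10 with those samples and the miR-451a to miR-23a-3p ratio as a covariate. With a replicate block by mouse on the change from PT there were 5 calls, and with the mouse as a random replicate block in limma-voom 16, of which 11 were shared. With the month 1 groups cut to 1 stratum and the other groups whole there were 3 calls in set G2, 8 in set G4, 6 in females and 6 in males. The model with sex in all its groups, used for the sexes above, called 8 in females. Leaving out the 4 samples that stood apart gave 7, irradiated mouse 2010 alone 25 (all 16 among them) and sham mouse 2001 alone 8. Of the time and strain differences, month 2 minus month 1 (1 call by edgeR) gave 2 calls with DESeq2 size factors, 0 with miRNA of mean log2 CPM of at least 5 (4 at an unadjusted p under 0.05) and 0 in set G2 (15 unadjusted). Month 1 minus day 5 (6 calls) gave 2 in set G4, and C3H minus C57Bl/6 (6 calls) gave 2 with limma-voom, 2 with the random replicate block and 3 at the higher CPM minimum. With miR-103-3p, itself called lower, in place of miR-23a-3p the hemolysis ratio difference turned from -0.12 to 0.43 (adjusted permutation p = 0.114). Without the 4 samples that stood apart the correlation of miR-18b-5p with miR-20b-5p in irradiated mice was 0.33 and that of miR-106a-5p with miR-18b-5p in sham mice 0.34. The cause of these changes was not tested.

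Among the alternatives to the main comparison, miR-18b-5p and miR-106a-5p were called in 17 of 17, miR-20b-5p and miR-150-5p in 17 of 18 and miR-122-5p in 16 of 18, while miR-340-5p and miR-365-3p were called in 3 and 4 of 18. None of the 16 changed sign in these alternatives. Sparse miRNA such as miR-6961-3p are limited by depth.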
